A study of Mus musculus with 7 samples.

Results

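Open chromatin was examined at 8 forkhead genes of the developing face: Foxe1, Foxf1, Foxf2, Foxc1, Foxc2, Foxd1, Foxd2 and Foxp1. They were chosen by name, and every ATAC-seq peak in a gene body or within 50 kb of it was taken, from all deposited peaks and again from the 38000 autosomal peaks with the largest −log10 p in each library's list (the equal-length lists). ATAC-seq uses a transposase to cut and tag DNA that nucleosomes leave exposed, so a peak marks an accessible stretch. The windows of the 8 genes held 176 of the 130788 regions obtained by merging peaks of the 7 lists that share at least 1 bp, and 101 of 77136 in the equal-length lists.

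The 7 mouse libraries fall into 5 groups. The ectoderm group was the outer layer of the first pharyngeal arches at embryonic day 11.5, freed from mesenchyme with Dispase II (replicates 1 and 2). The Sox2-positive group was the fraction of cells sorted at postnatal day 2 from dissociated labial cervical loops (epithelial tissue at the base of the growing lower incisor) of Sox2-GFP mice, in which the endogenous Sox2 promoter drives the fluorescent protein (replicates 1 and 2). Whole lower incisor, whole lower first molar and whole upper first molar, all at postnatal day 2, gave 1 library each, so values that rest on a single tooth have no replicate check. The ectoderm lists differ from the postnatal lists in both age and tissue, so these cannot be told apart in any comparison between them. The labels give no strain or genotype for the embryos and whole teeth, and do not say whether replicates or libraries came from separate or pooled animals.

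Forkhead proteins bind DNA through a winged-helix domain and regulate transcription. In the face, Foxe1 is known from pharyngeal and oral epithelium and from cleft palate when it is lost. Foxf1, Foxf2, Foxc1, Foxc2, Foxd1 and Foxd2 are known mainly from mesenchyme, where several of them respond to Hedgehog signals sent by the epithelium. Foxp1 is a broadly expressed repressor that works as a dimer. In the tooth, Sox2 is known as a gene of epithelial progenitors, and a whole tooth also contains mesenchyme.

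A promoter sequence was held by the RefSeq table (GRCm38.p6) for 5 of the 8 genes, Foxf2, Foxc1, Foxd1, Foxd2 and Foxp1, the last with 3 starts. Foxe1, Foxf1 and Foxc2 are named only, and their start peaks are peaks at either end of the gene. The 250 bases before 5 of these starts are printed 5′ to 3′ on the gene's strand, with each CpG dinucleotide in capitals. They are shown because the Foxp1 starts differed most in CpG content and in the libraries with a peak, and because Foxf2 and Foxc1 are neighbours with CpG-rich starts.
Foxp1 start 1 (chr6:99520994-99521243, minus strand): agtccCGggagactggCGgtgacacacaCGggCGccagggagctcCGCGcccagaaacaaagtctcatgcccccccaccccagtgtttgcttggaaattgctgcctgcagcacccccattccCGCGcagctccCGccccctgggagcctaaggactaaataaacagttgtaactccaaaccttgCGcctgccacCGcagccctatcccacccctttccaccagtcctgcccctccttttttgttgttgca
Foxp1 start 2 (chr6:99266516-99266765, minus strand): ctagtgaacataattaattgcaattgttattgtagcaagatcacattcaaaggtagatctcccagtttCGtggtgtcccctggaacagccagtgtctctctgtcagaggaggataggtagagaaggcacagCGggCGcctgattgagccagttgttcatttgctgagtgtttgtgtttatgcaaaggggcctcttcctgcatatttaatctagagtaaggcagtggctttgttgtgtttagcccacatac
Foxp1 start 3 (chr6:99028299-99028548, minus strand): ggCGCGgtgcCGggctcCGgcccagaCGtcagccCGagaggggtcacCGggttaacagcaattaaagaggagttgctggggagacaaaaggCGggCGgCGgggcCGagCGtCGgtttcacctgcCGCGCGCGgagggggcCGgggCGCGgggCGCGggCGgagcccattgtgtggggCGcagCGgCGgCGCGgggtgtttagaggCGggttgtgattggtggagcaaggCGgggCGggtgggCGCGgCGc
Foxf2 (chr13:31625566-31625815, plus strand): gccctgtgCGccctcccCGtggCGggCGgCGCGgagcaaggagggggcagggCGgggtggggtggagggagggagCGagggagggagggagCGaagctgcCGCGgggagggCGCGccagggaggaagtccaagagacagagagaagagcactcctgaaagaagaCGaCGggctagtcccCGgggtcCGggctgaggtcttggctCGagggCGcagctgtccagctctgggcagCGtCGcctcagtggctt
Foxc1 (chr13:31806396-31806645, plus strand): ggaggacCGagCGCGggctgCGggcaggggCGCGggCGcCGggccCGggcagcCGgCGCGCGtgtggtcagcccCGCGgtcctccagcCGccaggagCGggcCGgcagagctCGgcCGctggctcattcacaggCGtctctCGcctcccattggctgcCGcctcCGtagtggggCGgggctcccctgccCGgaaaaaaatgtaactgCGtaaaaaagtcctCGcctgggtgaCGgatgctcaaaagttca

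Foxp1 start 2 stood apart in these sequences. It held 3 CpGs and 45.2% G+C, with a CpG observed-over-expected ratio of 0.24, and 27.6% of 21263 promoters of coding genes had a lower ratio. Start 1 held 11 CpGs (ratio 0.52), and start 3 held 34 (ratio 1.12), above 97.8% of promoters. The ratio was 0.72 for Foxf2, with 21 CpGs, and 0.93 for Foxc1, with 29. Foxd1 and Foxd2, at 0.60 and 0.62, were closer to the median promoter, at 0.53. The forkhead motif TGTTTAC, the GLI core CCACCCA and the TATA box TATAAA, searched on both strands, were in none of the 7 member promoters, against 2.62%, 8.29% and 11.6% of all promoters. That says only that these letters are not in these windows.

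The lists differed in length. They held 82461 and 50792 peaks in the ectoderm, 42606 and 39017 in the Sox2-positive lists, 63040 in incisor, 70000 in lower molar and 68307 in upper molar. Peak lists carry no read counts, so the sequencing depth is unknown, and the main counts are given for all peaks and for the equal-length lists. The lowest −log10 p kept at equal length was 4.79 and 3.82 in ectoderm and 3.33 and 2.94 in the Sox2-positive lists. It was 4.01 in incisor, 4.28 in lower molar and 4.27 in upper molar. Peaks of the same −log10 p can therefore be kept in some lists and dropped in others. With 2 lists against 2 the smallest two-sided p of an exact permutation test is 0.333, so no test was run between these groups and no p-value is given. Signal and −log10 p are the authors' values for each peak and were not normalised between lists. Of 9 epithelial marker genes, 8 had a start peak in every library, the exception being Trp63, which had none at its listed start. Of all coding genes, 56.8% to 66.6% had one in a given list. Among the equal-length lists the marker numbers were 8 in each ectoderm and Sox2-positive list, 5 in incisor and 7 in each molar. The share of autosomal coding genes was then 56.6% to 62.9%. Of the 9 windows, 7 held more peaks in both ectoderm lists than in both Sox2-positive lists, and none the reverse. Of coding genes, 40.4% and 2.93% did. At equal length 4 did and none the reverse, beside 20.1% and 17.6%. A smaller number of cells with an open site and a weaker opening in each cell cannot be told apart in such data.

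Start peaks, with a base within 1 kb of the gene start, were found in all 7 lists for 6 of the 8 genes, Foxf1, Foxf2, Foxc1, Foxd1, Foxd2 and Foxp1, where 54.1% of all coding genes had one. With equal-length lists only Foxd2 and Foxp1 of the 8 had one in every library, against 51.4% of autosomal coding genes. Foxe1 had a start peak in both ectoderm lists and in none of the other 5, in both kinds of list, a pattern shared by 2.93% of coding genes with all peaks and 2.88% in the equal-length lists. The genes therefore divided into those open at the start throughout, one open in the ectoderm alone, and several whose start peaks were absent or low in rank in some libraries.

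**Figure D1:**
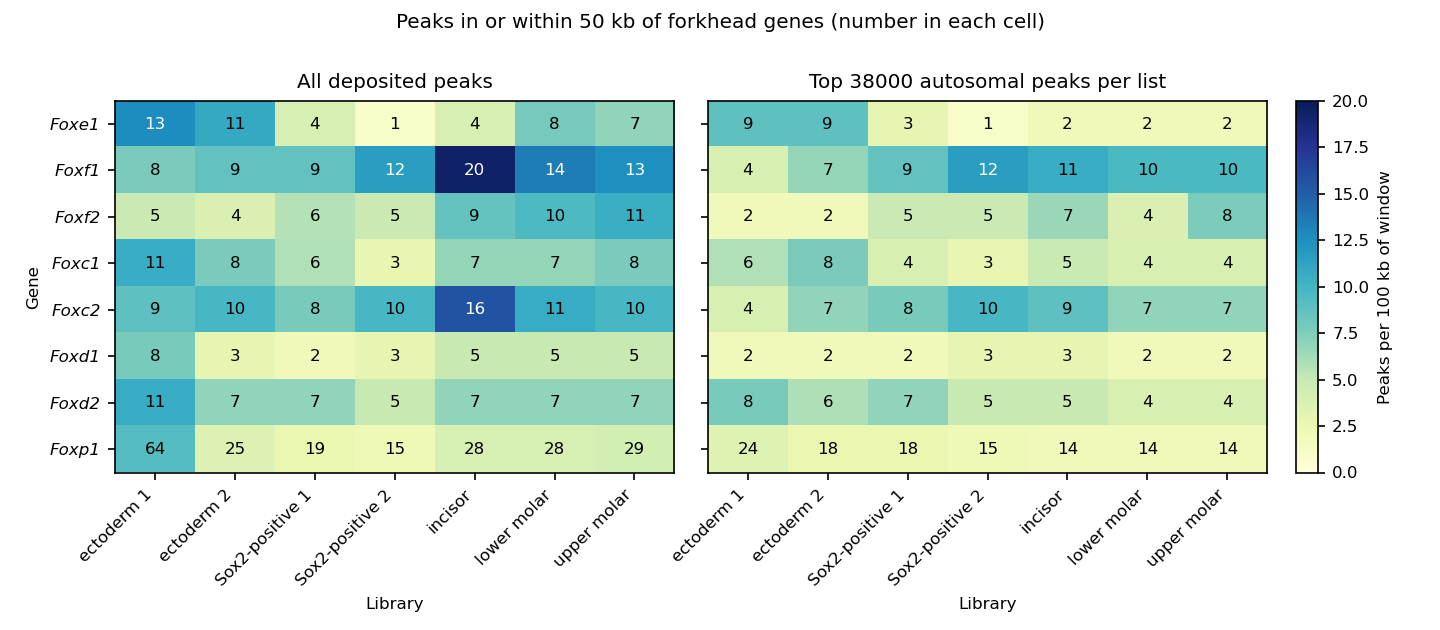
Number of peaks in or within 50 kb of each gene (rows) in each library (columns), with all deposited peaks on the left and the 38000 autosomal peaks with the largest −log10 p on the right. Numbers are peaks, and shading gives peaks per 100 kb of window. Foxe1 runs from 13 and 11 in the ectoderm to 4 and 1 in Sox2-positive cells, whereas Foxf1 reaches 20 in incisor.

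Foxe1 (chr4:46343644-46345774), the epithelial member, had 13 and 11 peaks in the 2 ectoderm lists, 4 and 1 in the Sox2-positive lists, 4 in incisor, 8 in lower molar and 7 in upper molar. Both ectoderm lists lay above each of the other 5. The ectoderm mean of 12.0 ± 1.41 (SD, n = 2) was 9.50 above the Sox2-positive mean, whose SD was 2.12 (n = 2). Equal-length lists gave 9 and 9 peaks in ectoderm, 3 and 1 in Sox2-positive lists, and 2 in each whole tooth. Both ectoderm values again lay above the others. The sequence under these peaks came to 7146 and 6552 bp in ectoderm and to between 619 and 1327 bp in the 5 postnatal lists.

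The ectoderm peak at the Foxe1 start was broad. It spanned 2357 bp in replicate 1 and 2300 bp in replicate 2, wider than 96.5% and 93.0% of the start peaks of those libraries, and merged to chr4:46342374-46344730 over the lower-coordinate end of Foxe1 and the neighbouring end of the long noncoding gene Gm12446. No postnatal list had a peak base within 1 kb of either end of Foxe1. Another broad region, 8.88 kb from that end (chr4:46352520-46354153, between genes), had a signal of 2585 and 2200 in the ectoderm lists. It was also present, with signals of 262 to 332, in Sox2-positive replicate 1 and both molars, but not in incisor or Sox2-positive replicate 2. In all, 6 of the 15 regions at Foxe1 (40.0%) were in both ectoderm lists and neither Sox2-positive list, beside 17.5% of regions near coding genes. None was in both Sox2-positive lists and neither ectoderm list, beside 5.75%.

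The remaining postnatal peaks at Foxe1 lay mainly away from the gene. The only region there in all 7 lists, in both kinds of list, was chr4:46388987-46389656, 45.3 kb from the same end and inside the body of the neighbouring gene Trmo. It held the only peak of Sox2-positive replicate 2 in the Foxe1 window. Regions present in both molars but not in incisor numbered 4 of 15 (26.7%, background 11.4%), and incisor without the molars had 1 (6.67%, background 9.20%). No region of either kind remained at Foxe1 among the equal-length lists (background 10.3% and 11.9%), where each whole tooth had 2 peaks.

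Foxf1 and Foxc2 lie 28.0 kb apart on chromosome 8, so their windows overlap and share 15 regions, out of 19 for Foxf1 and 17 for Foxc2. Their counts are not independent, and each shared region is counted once in totals over the 8 genes. Foxf1 (chr8:121084386-121088154), known from mesenchyme beneath epithelia, had 8 and 9 peaks in ectoderm, 9 and 12 in the Sox2-positive lists, 20 in incisor, 14 in lower molar and 13 in upper molar. The ectoderm and Sox2-positive counts met at 9, and all 3 whole teeth lay above them. By equal-length lists Foxf1 had 4 and 7 peaks in ectoderm, 9 and 12 in the Sox2-positive lists, 11 in incisor and 10 per molar. Each ectoderm list was then below each postnatal list, with 2614 and 3947 bp under peaks against 7037 to 12311 bp.

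The Foxf1 start peak was narrower in both ectoderm lists than in each postnatal list. Its width was 470 and 699 bp in the ectoderm lists, 1194 and 2020 bp in the Sox2-positive lists, 3282 bp in incisor, 2104 bp in lower molar and 1593 bp in upper molar. The ectoderm peaks, chr8:121083607-121084076 and chr8:121084275-121084973, shared no base and were joined into a region only by postnatal peaks. Within their own lists the ectoderm peaks were wider than 5.26% and 10.7% of start peaks. The postnatal peaks were wider than 64.9% (Sox2-positive replicate 1) to 98.5% (incisor). Ranked by −log10 p within their lists, the ectoderm peaks stood above 44.8% and 10.8% of peaks, and the postnatal peaks above 59.1% to 87.3%. Neither ectoderm peak was among the top 38000, and all 5 postnatal peaks were. The cut falls at unlike −log10 p, however. The peak of ectoderm replicate 1 had 4.47 and was dropped (lowest kept 4.79). That of Sox2-positive replicate 1 had 4.49 and was kept (lowest kept 3.33).

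Further sites near Foxf1 lay over Fendrr, a long noncoding gene 1.28 kb from it. The region chr8:121056956-121058773, 25.6 kb before the lower-coordinate end of Foxf1, was in all 5 postnatal lists and neither ectoderm list, with signals of 1055 and 2226 in the Sox2-positive lists, 4187 in incisor, 3035 in lower molar and 3245 in upper molar. A smaller one, chr8:121074505-121075120, had the same distribution with all peaks. In the other direction, chr8:121080023-121080456, also over Fendrr, was in both ectoderm lists (signals 612 and 397) and in no postnatal list. The region chr8:121062727-121063156 was in the 3 whole teeth alone, with signals of 292 to 450.

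Foxf2 (chr13:31625816-31631406), whose loss in mice causes cleft palate, had 5 and 4 peaks in ectoderm, 6 and 5 in the Sox2-positive lists, 9 in incisor, 10 in lower molar and 11 in upper molar. The ectoderm and Sox2-positive counts met at 5, and the whole teeth were above both groups. Its equal-length counts were 2 in each ectoderm list, 5 in each Sox2-positive list, 7 in incisor, 4 in lower molar and 8 in upper molar. Each postnatal list then held at least 4 peaks against 2 in ectoderm. Its start peak, over the CpG-rich sequence printed above, was in all 7 lists, but it was outside the top 38000 in ectoderm replicate 1 and lower molar. Further along, 3 regions at 6.46, 20.0 and 25.9 kb after the Foxf2 start were in all 5 postnatal lists and neither ectoderm list. The strongest of them, chr13:31651676-31652919, had signals of 1016 and 1007 in the Sox2-positive lists, 1942 in incisor, 1262 in lower molar and 1485 in upper molar.

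**Figure D2:**
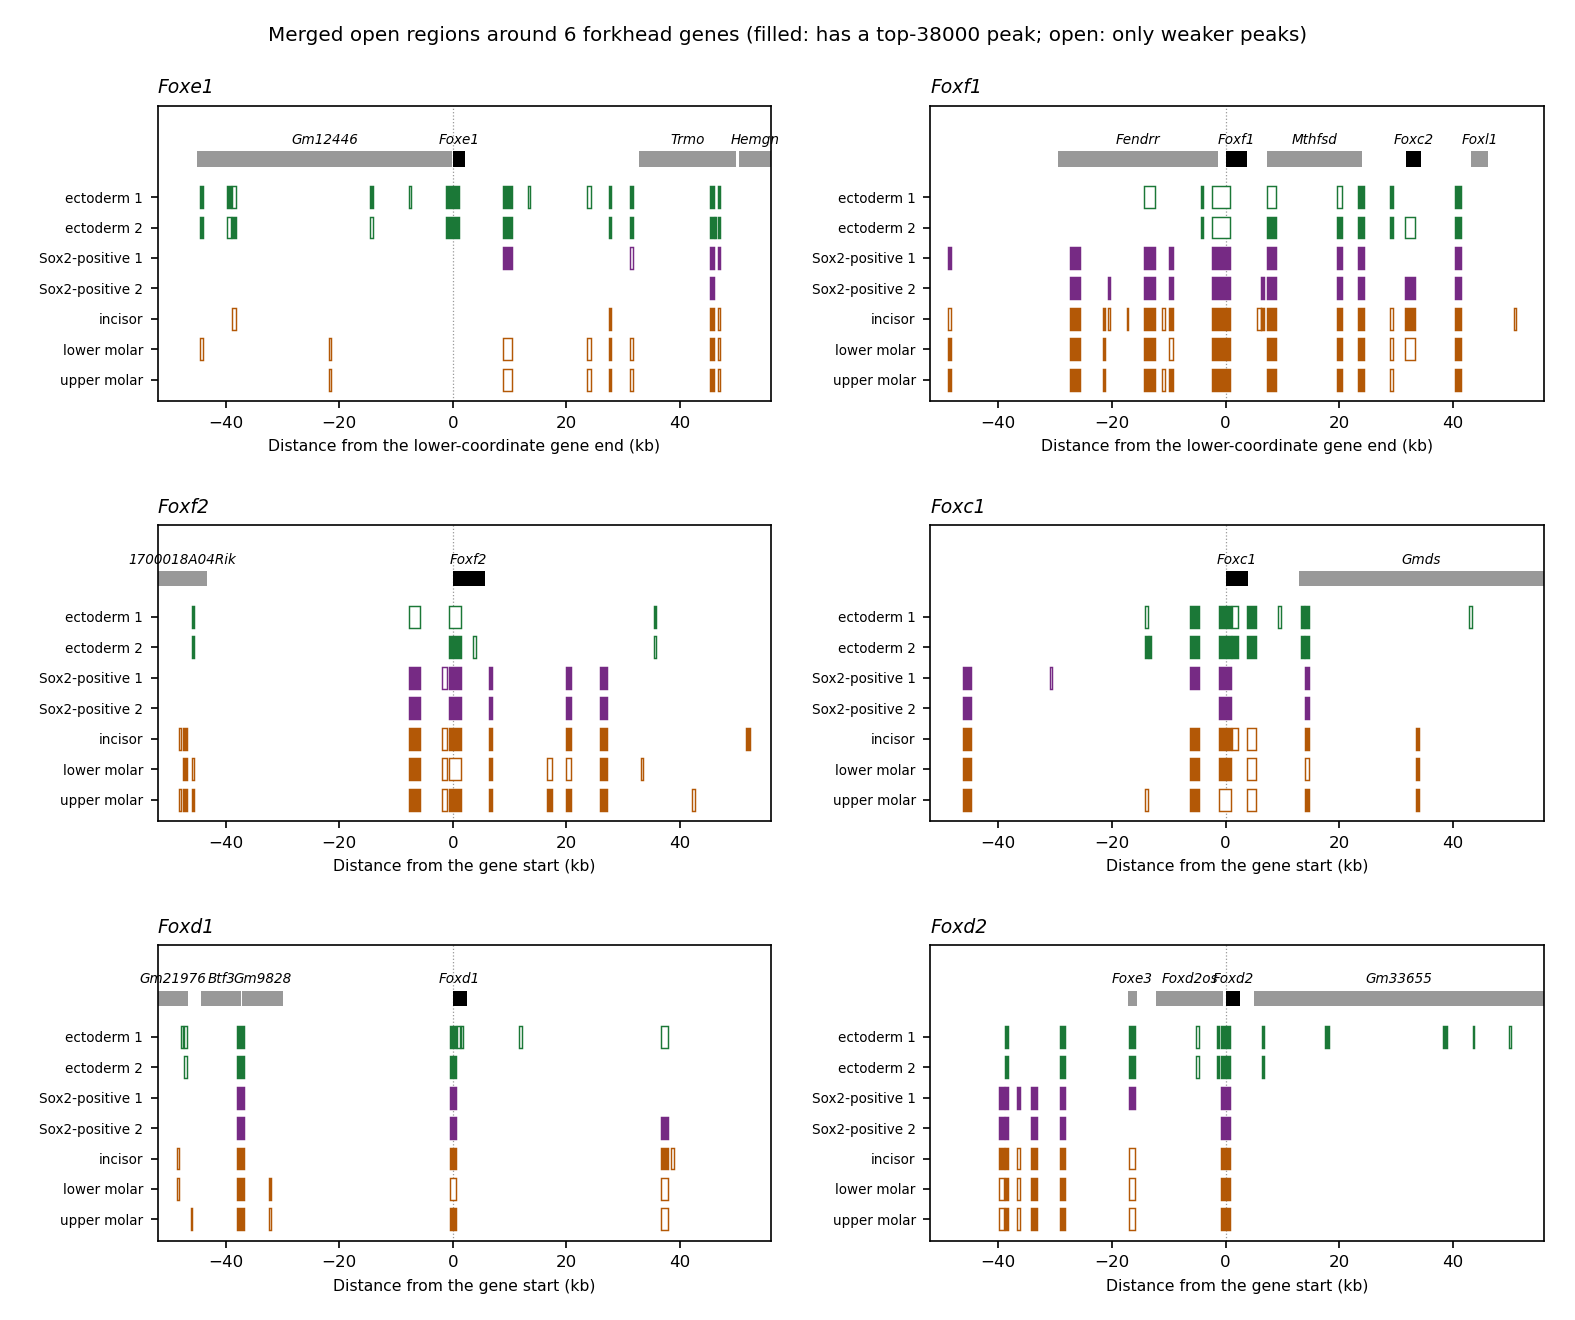
Merged open regions (boxes) in each library (rows) around Foxe1, Foxf1, Foxf2, Foxc1, Foxd1 and Foxd2, by distance in kb from the gene start or, for Foxe1 and Foxf1, the lower-coordinate gene end. Each box spans the whole merged region, with a minimum drawn width. Filled boxes hold a peak of the equal-length lists, and open boxes only peaks ranked lower in their own list. Members are black bars and selected neighbours grey. The Foxe1 start box appears in the 2 ectoderm rows alone, and the Foxf1 start box is open in those rows and filled in the other 5.

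Foxc1 (chr13:31806646-31810635) lies 175 kb from Foxf2 on the same chromosome, with separate windows, and its counts ran the other way. Foxc1, known from periocular and cranial mesenchyme, had 11 and 8 peaks in ectoderm, 6 and 3 in the Sox2-positive lists, 7 in incisor, 7 in lower molar and 8 in upper molar. The lowest ectoderm list was level with upper molar and above both Sox2-positive lists. The means were 9.50 ± 2.12 (SD, n = 2) and 4.50 ± 2.12 (SD, n = 2). The equal-length lists held 6 and 8 in ectoderm, 4 and 3 in the Sox2-positive lists, 5 in incisor and 4 per molar. Each ectoderm value was above all the others.

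The Foxc1 start peak spanned 1969 and 2123 bp in ectoderm, 575 and 1286 bp in the Sox2-positive lists, 1400 bp in incisor, 950 bp in lower molar and 676 bp in upper molar. The ectoderm widths were the largest of the 7. In Sox2-positive replicate 1 and both molars, 2 peaks lay within 1 kb of the start. The width given there is that of the peak with the larger signal. By −log10 p the start peak ranked above 77.8% and 66.8% of peaks in the ectoderm lists and above 46.6% and 69.9% in the Sox2-positive lists. It ranked above 75.5% in incisor, 62.1% in lower molar and 39.0% in upper molar, where it fell outside the top 38000. Incisor and Sox2-positive replicate 2 thus ranked it above ectoderm replicate 2. At 13.3 kb, inside Gmds, chr13:31819915-31820397 was in the ectoderm lists alone. The region beside it, chr13:31820565-31821323, was in all 7 lists. A distal region 44.8 kb before the start, chr13:31760422-31761821, had another distribution: it was in all 5 postnatal lists and neither ectoderm list, with signals of 608 and 969 in the Sox2-positive lists, 2216 in incisor, 1310 in lower molar and 1706 in upper molar.

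Foxc2 (chr8:121116171-121118895), known from lymphatic vessels, heart and mesenchyme, had 9 and 10 peaks in ectoderm, 8 and 10 in the Sox2-positive lists, 16 in incisor, 11 in lower molar and 10 in upper molar. The ectoderm and Sox2-positive counts overlapped, and incisor stood above all of them. At equal length Foxc2 had 4 and 7 in ectoderm, 8 and 10 in the Sox2-positive lists, 9 in incisor and 7 per molar. Most of these regions are those shared with Foxf1. At Foxc2 itself the start peak was patchy: it was present in ectoderm replicate 2, Sox2-positive replicate 2, incisor and lower molar, and only the Sox2-positive replicate 2 and incisor peaks were among the top 38000. Within both replicated groups, therefore, 1 replicate had the peak and the other did not.

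Mesenchymal markers differed between the libraries in which the Foxf1 and Foxf2 windows differed. Of 9 marker genes, the number with a start peak was 6 in each ectoderm list, 7 and 8 in the Sox2-positive lists, 8 in incisor and lower molar and 9 in upper molar. Of all coding genes, 66.6% and 64.3% had one in ectoderm, 58.1% and 56.8% in the Sox2-positive lists and 60.5% to 61.9% in the teeth. Among the equal-length lists the marker numbers were 4 and 6 in ectoderm, 7 and 8 in the Sox2-positive lists, 7 in incisor and 6 in each molar. The shares of autosomal coding genes were then 60.9% and 62.9%, 58.4% and 58.3%, and 56.6% to 56.9%. Pdgfra, a receptor of mesenchymal cells, had a start peak in all 5 postnatal lists and neither ectoderm list. Its window held 4 and 3 peaks in ectoderm and 10 and 9 in the sorted Sox2-positive cells, and 1 and 2 against 10 and 9 at equal length. Pdgfra, Col1a1 and Col1a2 were the 3 of the 9 with more peaks in both Sox2-positive lists than in both ectoderm lists, beside 2.93% of all coding genes. Msx1 alone ran the other way, with 11 and 9 in ectoderm and 3 in each Sox2-positive list, a direction that 40.4% of coding genes shared. In the equal-length lists 4 of the 9 were higher in Sox2-positive cells and 1 in ectoderm, beside 17.6% and 20.1%. Col1a1, Col1a2, Twist1, Pdgfrb and Msx1 had a start peak in all 7 lists, and Col3a1 had one in upper molar alone. Of 6 endothelial markers, 1 to 3 had a start peak in any list, as did 2 to 4 of 6 blood markers and 4 or 5 of 6 neural and Schwann cell markers. With equal-length lists these ranges were 0 to 2 of 6, 1 to 4 of 6 and 3 or 4 of 5. The shares of coding genes given above, 56.8% to 66.6% and 56.6% to 62.9%, apply here too. The part of these other cell types in the Foxf1, Foxf2, Foxc1 and Foxc2 values was not tested.

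Foxd1 (chr13:98354245-98356705), known from stromal and cranial mesenchyme, had 8 and 3 peaks in ectoderm, 2 and 3 in Sox2-positive cells and 5 in each whole tooth. The 2 ectoderm replicates differed more from each other than from the teeth. Of its 12 regions, 4 were in ectoderm replicate 1 alone. Each equal-length list had 2 or 3 peaks. Its narrow start peak, 538 to 1044 bp wide, was in all 7 lists and missed the top 38000 in lower molar only. A region 36.7 kb before the start in all 7 lists lay over the boundary of Btf3 and Gm9828.

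Foxd2 (chr4:114906280-114908898) had a start peak of similar rank in every library. Its start peak, shared with the long noncoding gene Foxd2os 0.359 kb away, had signals of 2051 and 1895 in ectoderm, 1646 and 1658 in the Sox2-positive lists, 2345 in incisor, 1807 in lower molar and 1885 in upper molar. It ranked above 74.8% to 86.1% of peaks in every list. The window held 11 and 7 peaks in ectoderm, 7 and 5 in Sox2-positive cells and 7 in each tooth, so the groups overlapped. Beside this shared start, the flanks differed by library. Regions at 33.3 and 39.0 kb before the start were in all 5 postnatal lists and neither ectoderm list. The one at 39.0 kb, in neither molar at equal length, lay beside a region at 38.4 kb that was in all 7 lists. A region 6.48 kb after the start, inside Gm33655, and another 1.09 kb before it, over Foxd2os, were in the ectoderm lists alone. The latter, chr4:114909991-114910376, lay beside the merged start region, which ended at 114909774 and was in all 7 lists.

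Foxp1 (chr6:98925342-99522746) is by far the longest of the 8, at 597405 bp, and 86 of the 176 regions were in its 697 kb window. It had 64 and 25 peaks in ectoderm, 19 and 15 in the Sox2-positive lists, 28 in incisor, 28 in lower molar and 29 in upper molar. Both ectoderm lists were above both Sox2-positive lists, but ectoderm replicate 2 was below the teeth. At equal length the counts were 24 and 18 in ectoderm, 18 and 15 in the Sox2-positive lists and 14 in each tooth, so the ectoderm and Sox2-positive counts met at 18. Of its 86 regions, 43 were in a single list and 30 of these in ectoderm replicate 1 alone, the longest list.

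The 3 listed Foxp1 starts differed in where they were open. Start 1 (position 99520993) and start 3 (position 99028298) had a peak in all 7 lists, and in all 7 equal-length lists. Start 2 (position 99266515), the CpG-poor one printed above, had signals of 2849 and 2409 in ectoderm, 587 in Sox2-positive replicate 1, 448 in lower molar and 847 in upper molar. No peak was listed there in Sox2-positive replicate 2 or incisor, and in the equal-length lists it was in both ectoderm lists and Sox2-positive replicate 1 only. It ranked above 90.9% and 84.2% of peaks in the ectoderm lists and above 13.5% to 39.0% in the other 3.

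Regions in all 7 lists numbered 6 of the 86 at Foxp1 (6.98%, background 16.6%), and other sites had other distributions. The region chr6:99032898-99033627, between starts 2 and 3, was in the ectoderm lists alone, with signals of 1515 and 816. Outside the gene, chr6:99528080-99529367, 7.09 kb before start 1, was in all 5 postnatal lists and neither ectoderm list, with signals of 1413 and 1678 in the Sox2-positive lists, 1357 in incisor, 2504 in lower molar and 2533 in upper molar.

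**Figure D3:**
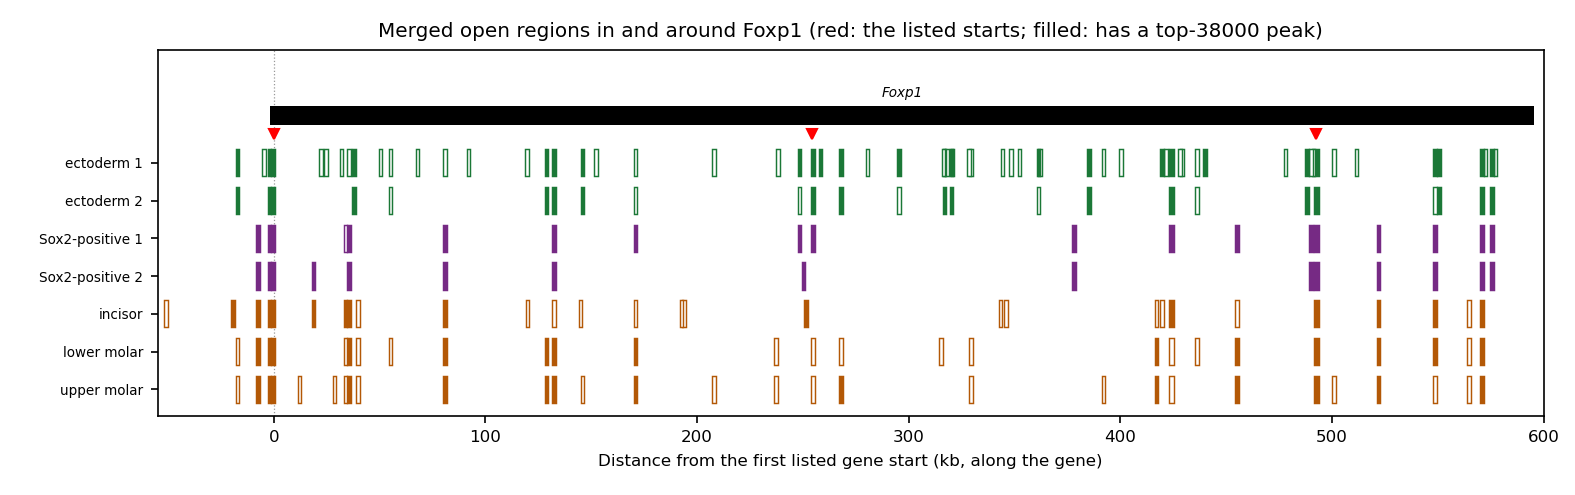
Merged open regions in and around Foxp1 in each library (rows), by distance in kb from the first listed start along the gene, with the listed starts as red triangles. Boxes are filled where the region holds a peak of the equal-length lists, and open where its peaks ranked lower in their own list. Boxes at starts 1 and 3 are filled in all 7 rows; at start 2 they are filled in both ectoderm rows and Sox2-positive 1, open in both molars and absent in Sox2-positive 2 and incisor.

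CpG content and start peaks moved together over all coding genes. Among promoters with a CpG ratio of at least 0.6, 87.4% had a peak within 1 kb in all 7 lists, and 83.0% in the equal-length lists. Below 0.6 the shares were 26.1% and 23.3%. Foxp1 start 3, Foxc1, Foxf2 and Foxd2 were in the higher class. Foxp1 starts 1 and 2 were in the lower one, as was Foxd1, by less than the rounding of its ratio. This is a description across genes, which are not independent replicates.

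**Figure D4:**
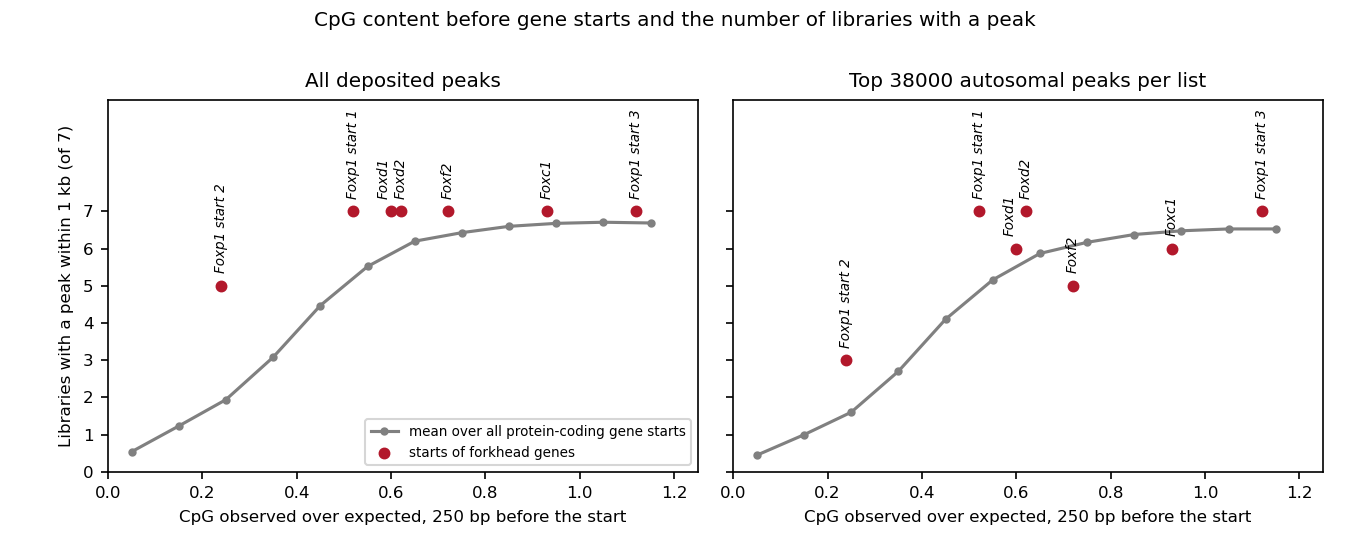
Libraries with a peak within 1 kb of a gene start (of 7) against the CpG observed-over-expected ratio of the 250 bases before it, with all peaks on the left and equal-length lists on the right. The grey line is the mean over coding gene starts in bins of the ratio, and red points are the 7 member starts. Foxp1 start 2, at a ratio of 0.24, has 5 libraries on the left and 3 on the right, and the other points lie at 7 on the left.

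Counting genes, 3 of the 8 (Foxe1, Foxc1 and Foxp1) had more peaks in both ectoderm lists than in both Sox2-positive lists, a direction that 40.4% of all coding genes shared when the longer ectoderm lists were used whole. The count was 5 when ectoderm replicate 2 or Sox2-positive replicate 2 was left out. The share of all coding genes was not computed for those settings, so that rise cannot be set against a background. None of the 8 had more in both Sox2-positive lists, against 2.93% of coding genes. Cut to equal length, Foxe1 and Foxc1 had more in ectoderm (20.1% of autosomal coding genes), and Foxf1, Foxf2 and Foxc2 had more in Sox2-positive cells (17.6%). Foxf1 and Foxc2 share most of their regions, so those 3 genes rest on 2 loci.

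Counting regions, 33 of 176 (18.8%) were in both ectoderm lists and neither Sox2-positive list, close to 17.5% of regions near coding genes. Without ectoderm replicate 2, whose list is the shorter, the count was 83. Background shares were not computed with a replicate left out, here or for the next class. Regions in both Sox2-positive lists and neither ectoderm list numbered 11 (6.25%), close to 5.75%, and 18 without Sox2-positive replicate 2. Of these 11, 10 were in all 5 postnatal lists, a class that held 4.48% of regions near coding genes and was looked at after the values were seen. They lay at Foxf1 (2, of which 1 is also in the Foxc2 window), Foxf2 (3), Foxc1 (1), Foxd2 (2) and Foxp1 (2), and none was in the Foxe1 or Foxd1 window. For equal-length lists the counts were 20 (19.8%) for ectoderm against 14.9%, 17 (16.8%) for Sox2-positive against 11.7%, and 12 (11.9%) in all 5 postnatal lists against 6.16%.

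Regions in all 7 lists numbered 20 of 176 (11.4%), below the 16.6% near coding genes, and 11 of 101 (10.9%) against 21.8% in the equal-length lists. Without Foxp1 the shares were 15.6% and 11.3%. Regions in whole teeth and none of the other 4 lists numbered 33 (18.8%, background 22.2%) with all peaks and 10 (9.90%, background 14.8%) in the equal-length lists. Those in all 3 whole teeth and none of the other 4 lists numbered 6 (3.41%, background 3.87%) and 3 (2.97%, background 1.72%). Of the regions with a peak in either ectoderm replicate, 52.1% had one in both, against 61.9% near coding genes. For the Sox2-positive replicates the share was 62.7% against 61.9%. At equal length these shares were 66.7% against 77.9% for ectoderm and 67.3% against 62.1% for Sox2-positive cells.

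**Figure D5:**
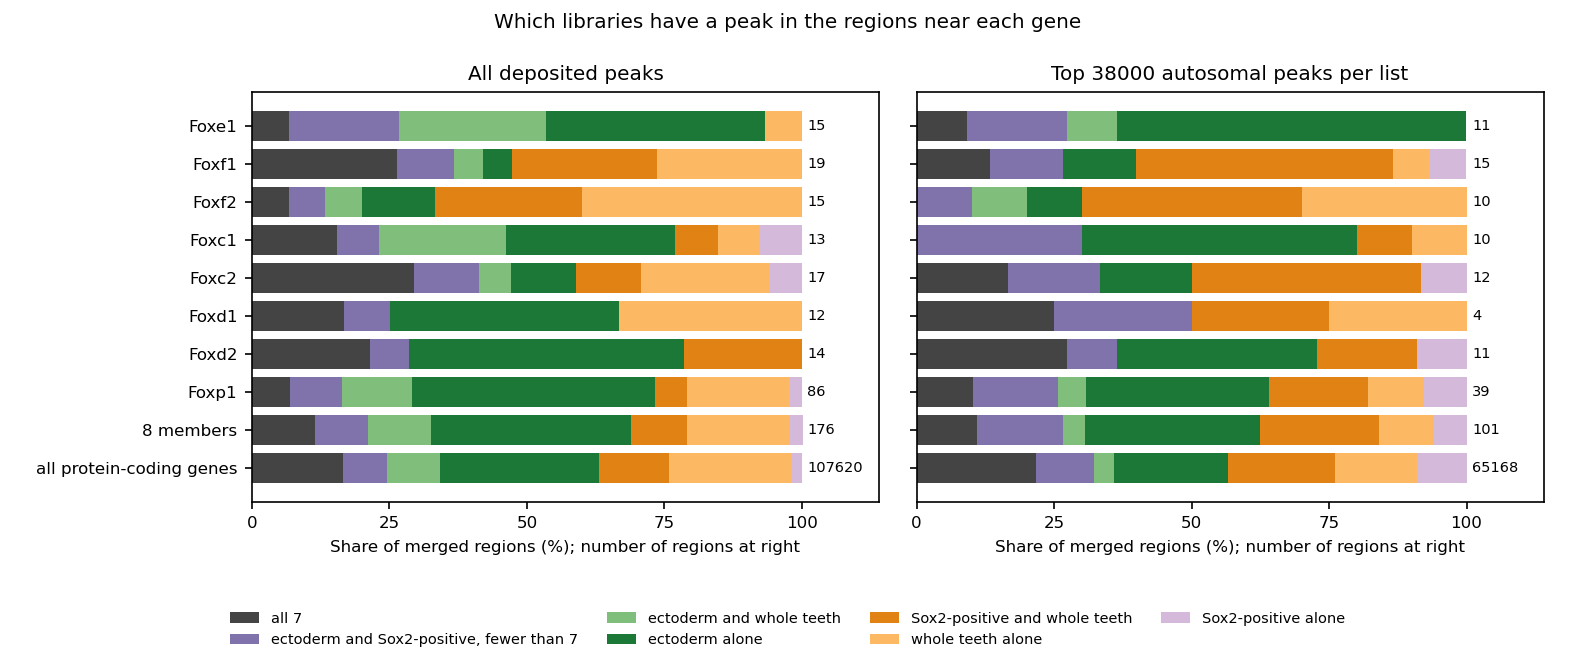
Share of merged regions (%) near each gene, near the 8 genes and near all protein-coding genes, by the libraries with a peak in them, with all peaks on the left and the equal-length lists on the right. The number of regions is at the right of each bar. Outside the class of all 7, a group counts if any of its lists has a peak. With all peaks, ectoderm alone makes up 7 of the 14 regions at Foxd2, 44.2% at Foxp1, 41.7% at Foxd1 and 40.0% at Foxe1, against 28.9% near all coding genes. Of these, 4 at Foxd2, 30 at Foxp1, 4 at Foxd1 and 2 at Foxe1 are in ectoderm replicate 1 only. At equal length the shares are 36.4%, 33.3%, 0% and 63.6%, against 20.7%. With all peaks, Sox2-positive with whole teeth makes up 26.3% at Foxf1 and 26.7% at Foxf2, against 12.7%.

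Between teeth, Foxf1 and Foxc2 had more peaks in incisor than in either molar, 20 against 14 and 13 and 16 against 11 and 10, a direction seen in 17.6% of coding genes. Foxe1 and Foxf2 had fewer in incisor than in both molars, as did 31.8% of coding genes. With equal-length lists 5 genes (Foxf1, Foxc1, Foxc2, Foxd1 and Foxd2) had more in incisor (background 22.8%), by a single peak over the higher molar except at Foxc2, where it was 9 against 7, and none had more in both molars (background 21.8%). Over the 8 genes, 13 regions were in both molars and not in incisor (7.39%, background 11.4%) and 20 were in incisor and in neither molar (11.4%, background 9.20%). At equal length these were 6 (5.94%, background 10.3%) and 10 (9.90%, background 11.9%). At Foxf1 and Foxc2, no region was in both molars without incisor with all peaks, and 5 and 4 were in incisor without the molars. The 4 at Foxc2 were all among the 5 at Foxf1. At equal length Foxf1 had 1 region in both molars without incisor and Foxc2 had 0, and each had 2 in incisor without the molars.

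Among the other 36 forkhead genes, 21 had more peaks in both ectoderm lists than in both Sox2-positive lists and none the reverse, beside 40.4% and 2.93% of all coding genes. At equal length 12 of the 33 autosomal genes had more in ectoderm and 6 in Sox2-positive cells, beside 20.1% and 17.6%. The 36 include Foxl1, 8.79 kb from Foxc2 and 39.5 kb from Foxf1, and Foxe3, 15.5 kb from Foxd2. Windows of these genes overlap those of the members, so their counts are not independent of the members' counts. A start peak in both ectoderm lists alone, as at Foxe1, was found for 8 of the 36 with all peaks and 6 of the 33 in the equal-length lists, beside 2.93% and 2.88% of coding genes. Among these, named after their values were seen, were Foxa1 and Foxa2, known from endoderm and airway epithelium. Start peaks in all 7 lists were found for 17 of the 36, among them Foxo1, Foxo3, Foxk1 and Foxm1, and for 54.1% of coding genes.

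Of 13 Hedgehog pathway genes, 9 had more peaks in both ectoderm lists and 2, Gli1 and Ptch1, in both Sox2-positive lists, beside 40.4% and 2.93% of coding genes. These numbers were 3 and 6 at equal length, beside 20.1% and 17.6%. Ptch1, the Hedgehog receptor and a target of the pathway, had 11 and 6 peaks in ectoderm, 23 and 14 in the Sox2-positive lists, 23 in incisor, 20 in lower molar and 24 in upper molar. Its equal-length counts were 3 and 5 in ectoderm, 21 and 13 in the Sox2-positive lists, 12 in incisor, 7 in lower molar and 14 in upper molar. Every Sox2-positive and tooth list was above both ectoderm lists in both kinds of list. Shh, the ligand, had a start peak in both ectoderm lists and both molars, and in neither Sox2-positive list nor incisor, in both kinds of list. Start peaks were found in all 7 lists for 11 of the 13, beside 54.1% of coding genes, and for 10 at equal length, beside 51.4%. Cdon had none at its listed start.

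The genes whose base pairs under the equal-length peaks followed each member most closely over the 7 libraries, among 16987 to 17000 genes more than 500 kb away, were found by Pearson correlation, given as a description with no p. Foxe1 was followed by Scaper (r = 0.999) and Senp2 (0.998), and Foxf1 by Bhlhe40 (0.996) and Sh3pxd2b (0.995). Sh3pxd2b was also the closest to Foxc2 (0.994), whose window overlaps that of Foxf1, followed by Ldlrad2 (0.990). Foxc1 was followed by Idh1 (0.991) and Igip (0.990), Foxf2 by Snapc5 (0.977) and Ralgps2 (0.973), Foxd1 by Clip4 (0.982) and Pamr1 (0.973), Foxd2 by Brinp2 (0.990) and Fbxw17 (0.961), and Foxp1 by Stk39 (0.990) and Lingo2 (0.990). The points are the same 7 libraries in every case, and several of these libraries belong to 1 group. Each r was also picked as the highest among all genes compared, so its size alone does not show a shared regulation.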

How the data were processed

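The data are 7 ATAC-seq peak lists, 1 per library, made by the Omni-ATAC protocol per the labels' protocols. The submitters' processing notes name Trimmomatic, Bowtie2, Genrich, deepTools and FastQC and the build mm10, with no versions or options. Positions are printed counted from 1 and read with RefSeq gene bodies of GRCm38.p6 (21887 coding genes). The deposited signal of each peak, at least 200 in every list, and the deposited −log10 p served to describe or order the peaks of 1 list. The unit of the signal and the pooling of replicates are not given in the sources used here.

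Peaks were joined into regions where they share 1 bp. A library had a region if 1 bp of it lay under its peaks. Shares near all coding genes served as the background. No test was run, so results are counts. Region code was tested on simulated data. The regions named are those at gene starts and, per class of libraries, the one with the highest mean rank of −log10 p; regions in all 5 postnatal lists, a few other sites, and counts of genes with more peaks in Sox2-positive lists were added after their values were seen. The 8 genes, the gene lists and the alternatives were chosen with earlier results of these data known. The planned comparison of member proteins was not run, and protein sequences were not used here. Python 3.11.15, pandas 2.3.3, numpy 2.4.6 and matplotlib 3.10.9 were used. Promoter sequences are from RefSeq.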

Additional observations from a re-analysis of the deposited data

How the results depend on the processing

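No paired analysis was possible because no label ties an ectoderm replicate to a Sox2-positive one and the counts were not tested. Counts were recomputed with the 38000 autosomal peaks per list by −log10 p or by signal, the 50% of each list with the largest −log10 p, windows of 25 or 100 kb, 50% of a region covered, 200 bp around summits, start distances of 500 bp or 2.5 kb, and without each replicate. Foxe1, Foxf1, Foxc1 and Foxp1 kept the sign of their mean ectoderm minus Sox2-positive difference in 9 of 9 alternatives, Foxf2 and Foxd2 in 8, Foxd1 in 6 and Foxc2 in 3. Genes with more peaks in ectoderm numbered 3 to 5 when 1 replicate was left out. Genes with more in Sox2-positive cells, none with all peaks, numbered 3 in both kinds of equal-length list and 0 in the stricter lists. They numbered 1 at 25 kb, 2 at 100 kb and 1 without any single replicate. With equal-length lists by signal, the 3 were Foxf1, Foxf2 and Foxd2. Ectoderm regions went from 33 to 20 in both equal-length lists, 15 in the stricter lists and 33 to 83 without a replicate. Sox2-positive regions went from 11 to 17 by −log10 p and at 100 kb, 7 at 25 kb and with 50% covered, and 11 to 18 without a replicate. Regions in all 5 postnatal lists were 6 at 25 kb, and 10 to 15 without a replicate. Regions in all 7 lists went from 20 to 11 in both equal-length lists, 7 in the stricter ones, 10 with 50% covered and 20 to 25 without a replicate. Genes with a start peak in all 7 went from 6 to 2 by −log10 p, 3 by signal and 2 in the stricter lists. Regions in both molars without incisor went from 13 to 6 in both equal-length lists, 8 in the stricter lists and 20 at 100 kb. Regions in incisor without molars went from 20 to 10 by −log10 p, 9 by signal and 5 in the stricter lists. The shorter lists hold fewer peaks by construction, and the other causes were not tested. Shares over all coding genes were computed only for all peaks and the lists cut by −log10 p to equal length. The other counts here have no background. Unknown read depth limits every statement that a peak was not listed.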
